A study of Mus musculus with 2 samples.

Results

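The genes described here are 10 transcription factors and regulators of myeloid lineage choice: Spi1, Cebpa, Cebpb, Cebpd, Cebpe, Irf4, Irf8, Gfi1, Batf3 and Id2. They were chosen by symbol among the 31192 genes of the transcriptome matrix, with earlier results of these data known. All 10 had at least 50 counts over the kept cells, as did 18243 genes in all. The cells came from hearts of Cdh5-CreERT2;REFLEX mice, which carry a tamoxifen-inducible Cre recombinase driven by the endothelial Cdh5 promoter and a reporter that marks interacting cells with GFP. The mice had received tamoxifen and had undergone transverse aortic constriction (TAC), a narrowing of the aorta that loads the heart with pressure. Cells with and without CD45, the pan-leukocyte surface protein, and with and without GFP were sorted, pooled and captured on a BD Rhapsody system. The data are 1 transcriptome library and 1 hashtag library, so every cell shares the genotype, the tamoxifen and the TAC operation, and no unoperated library was analysed here. The number, age and sex of the mice and the time after TAC are not given in the sources used here. The labels do not tie a hashtag to a sorted fraction, so cells with and without GFP were not compared.

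Blood cell lineages are set by small groups of transcription factors that work together and against each other. PU.1, the ETS-family protein encoded by Spi1, opens chromatin at genes of macrophages, granulocytes and B cells, and its dose helps to choose among them. C/EBP proteins bind as basic leucine zipper pairs: C/EBPα acts in myeloid progenitors, C/EBPε in late granulocyte maturation, and C/EBPβ and C/EBPδ in inflammatory and emergency responses. IRF8 and IRF4 bind DNA weakly by themselves and are drawn to composite sites by partners such as PU.1 and BATF-family proteins, and Irf8 with Batf3 is known for the type 1 conventional dendritic cell. GFI1 is a zinc finger protein that represses transcription and acts in granulocyte and lymphocyte development. ID2 has no DNA-binding region and holds E proteins away from DNA, which favours innate lymphoid and dendritic fates over the B lineage.

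Promoter sequences were taken from RefSeq (GRCm38.p6), as the 250 bases before each transcription start, and 7 of the 10 genes had an entry, with 9 windows in all; Spi1, Cebpd and Cebpe had none. Both strands were searched for 4 motifs, with the share of all 32851 mouse windows of this length that hold each: the PU.1 core GAGGAA (23.3%), the C/EBP pattern TTGCNNAA (9.56%), the ETS-IRF composite element (2.30%), which can overlap the PU.1 core, and the STAT pattern TTCNNNGAA (7.02%). 3 windows are shown, those of Irf8, Irf4 and Batf3, chosen after the matches were seen. These genes were each highest in a different class of cells outside the neutrophils. The same held for Cebpa and Gfi1, whose windows are not shown. Capitals mark the motif matches. In the Irf8 window (chr8:120736108-120736357, plus strand) both matches are STAT patterns, beginning 171 and 153 bases before the start. In the Irf4 window (chr13:30748983-30749232, plus strand) the match is the PU.1 core on the minus strand, 19 bases before the start. In the Batf3 window (chr1:191098164-191098413, plus strand) a STAT pattern lies 239 and a PU.1 core 153 bases before the start.
Irf8: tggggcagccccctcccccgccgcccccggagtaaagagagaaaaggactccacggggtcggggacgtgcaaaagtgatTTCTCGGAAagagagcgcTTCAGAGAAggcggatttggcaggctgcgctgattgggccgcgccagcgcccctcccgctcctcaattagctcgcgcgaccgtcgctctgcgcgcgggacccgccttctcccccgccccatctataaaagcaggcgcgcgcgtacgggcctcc
Irf4: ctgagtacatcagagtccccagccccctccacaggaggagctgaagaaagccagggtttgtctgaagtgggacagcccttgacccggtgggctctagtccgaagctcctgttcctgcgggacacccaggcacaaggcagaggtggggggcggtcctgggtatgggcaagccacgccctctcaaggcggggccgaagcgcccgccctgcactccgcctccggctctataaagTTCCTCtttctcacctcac
Batf3: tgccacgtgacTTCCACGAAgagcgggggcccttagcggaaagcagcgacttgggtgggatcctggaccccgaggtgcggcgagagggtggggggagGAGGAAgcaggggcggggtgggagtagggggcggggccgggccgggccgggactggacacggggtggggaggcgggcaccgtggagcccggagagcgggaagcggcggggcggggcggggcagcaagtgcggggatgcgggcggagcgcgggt
No match overlapped another in these windows. The C/EBP pattern was present in 1 of the Gfi1 windows, 143 bases before the start, and the other 5 windows held none of the 4 motifs. A match is a run of letters and was not tested for binding, and no binding or chromatin data were analysed here.

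Of 878 cell barcodes, all of which also had hashtag counts, 857 were kept and 21 with over 25% mitochondrial counts were left out. A cell had between 28407 and 706332 counts (median 77171), whereas the labels give 20000 cells loaded. Clustering without the 10 genes and their relatives gave 10 clusters, of which 9 were named from marker lists and merged into 8 classes: 273 neutrophil-like, 103 classical monocyte-like, 80 patrolling monocyte-like, 52 macrophage-like, 31 conventional dendritic-like, 160 B cell-like, 103 T cell-like and 27 NK cell-like cells. The conventional dendritic-like name had less support than the others, with 6 of 11 markers passing. Of its 31 cells, 19 had 3 markers of that list and 25 had 3 neutrophil markers. The dendritic list summed to 1696 CPM there and to 1778 CPM in B cell-like cells, where H2-DMb2 made up 1177. The neutrophil list summed to 1111 CPM in conventional dendritic-like cells, of which Il1r2 made up 819. The remaining cluster of 28 cells stayed unnamed. Median totals per cell ran from 64327 in neutrophil-like to 256566 in conventional dendritic-like cells, so shares of cells with a gene were also taken after each cell was thinned to 25000 counts. Cell names carry 1 of 4 hashtags, A951, A952, A953 or A965, or the word doublet; in 490 of 826 singly named cells that hashtag was also the one counted most, in 331 of 331 named A951 and 128 of 134 named A952 but in 14 of 114 named A953 and 17 of 247 named A965. Levels by name are therefore given as levels by name only.

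A level below is in CPM: the counts of a gene summed over the cells of a class, per 1000000 counts of that class. With 1 library there is no replicate and no test. The intervals are exact 95% intervals that cover counting error only and say nothing of the spread between mice. They treat every count as independent, and no source used here says whether the counts are molecules or reads. Below, beyond or within counting error means as judged by these intervals. A gene is called higher or lower in a class when its CPM, with 1 CPM added, is at least 2 times above or below that of all other kept cells. By this rule 4 of the 10 genes were higher in neutrophil-like cells (Spi1, Cebpb, Cebpd and Cebpe), beside 8.84% of all genes counted, and 5 were lower, beside 32.6%. Patrolling monocyte-like cells had 2 higher (Cebpb and Id2; 8.07% of all genes), macrophage-like cells 1 (Cebpa; 7.40%) and conventional dendritic-like cells 1 (Batf3; 6.74%). Classical monocyte-like cells had 0 higher, beside 3.87%, and 3 lower (Irf4, Irf8 and Gfi1), beside 19.3%. Among lymphocytes, 3 were higher in B cell-like cells (Irf4, Irf8 and Gfi1; 16.9%), 1 in T cell-like cells (Gfi1; 14.7%) and 2 in NK cell-like cells (Irf8 and Id2; 16.1%). In B cell-like cells all 7 others were lower, beside 17.5% of all genes, with a median log2 ratio over the 10 genes of -2.93 against 0.02 over all genes. T cell-like cells had 7 lower, beside 18.2%, and NK cell-like cells 8, beside 28.4%. In the map of levels by class, Spi1 is higher in every myeloid than in every lymphocyte column. Irf8, Irf4, Gfi1 and Id2 have their highest levels in lymphocyte columns. For Id2 the NK cell-like level (1569 CPM) is close to the patrolling monocyte-like level (1341 CPM).

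**Figure D1:**
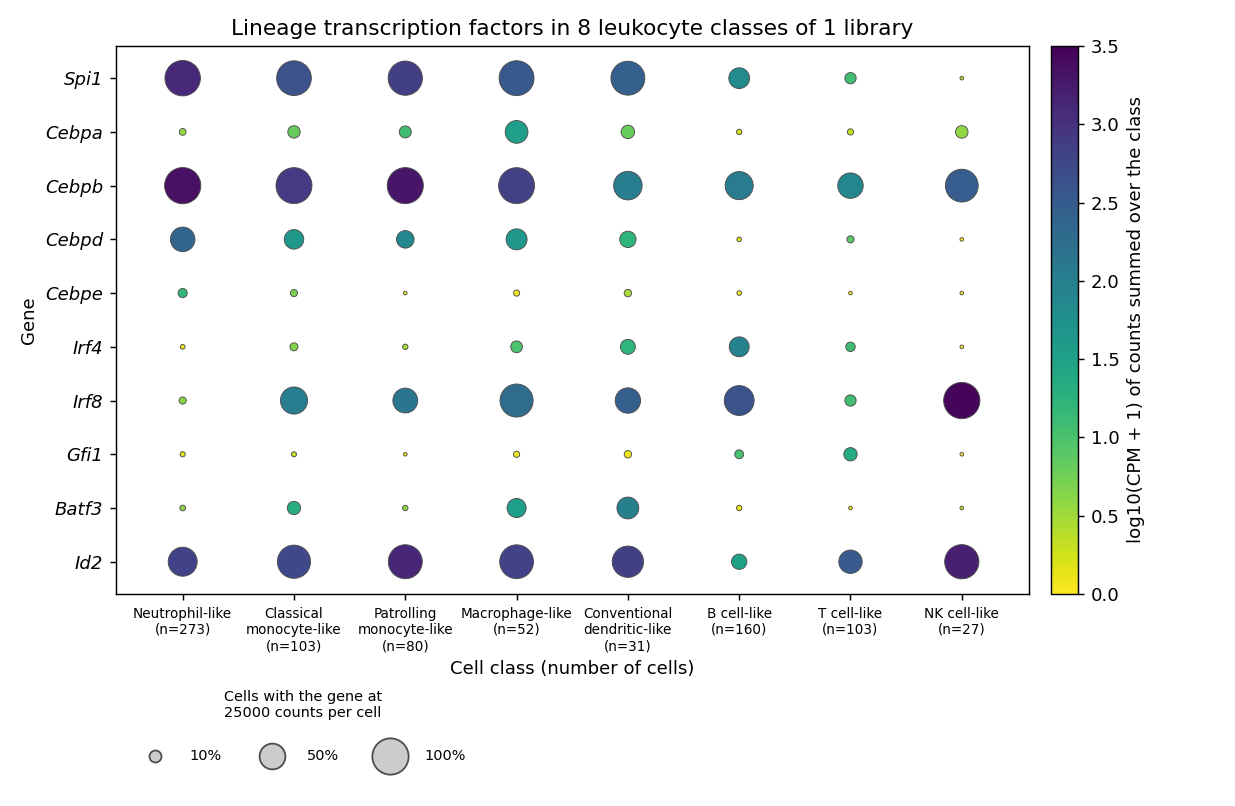
Level and share of cells for the 10 genes (rows) in 8 classes (columns, with the number of cells). Colour is log10(CPM + 1) of the summed counts and dot area the percent of cells in which the gene was present after thinning to 25000 counts, the smallest dots standing for shares near 0. Spi1 and Cebpb are dark in neutrophil-like cells (1294 and 2273 CPM), and Irf8 is darkest in NK cell-like cells (2849 CPM).

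The highest Spi1 level, 1294 CPM (1277 to 1310.0), was in neutrophil-like cells. The level was 709 CPM in patrolling monocyte-like, 419 in classical monocyte-like, 339 in macrophage-like and 286 in conventional dendritic-like cells. It was 65.0 CPM in B cell-like and 10.9 in T cell-like cells, and 2 counts in all were found in 27 NK cell-like cells (1.02 CPM, 0.124 to 3.69). Every myeloid class therefore stood above every lymphocyte class, and neutrophil-like cells were 4.21 times (4.13 to 4.28) above the rest. Neighbouring myeloid classes differed beyond counting error, but the quartiles of their cells overlapped, with medians of 1069.7 CPM in neutrophil-like and 662 CPM in patrolling monocyte-like cells. The gap after conventional dendritic-like cells was 4.39 times (4.05 to 4.78), and there the quartiles of the cells did not overlap those of the B cell-like cells. At least 5 counts of Spi1 were found in 254 of 273 neutrophil-like and 32 of 160 B cell-like cells, against 2 of 103 T cell-like cells, which serve here as the measure of free RNA (8.74% had the gene after thinning, 31.9% of B cell-like cells). In T cell-like cells a single cell held 49.1% of the counts, and without it the level was 5.63 CPM. B cell-like cells had 267 CPM of the summed neutrophil marker list, against 108961 in neutrophil-like cells, and 9 of 9 B cell markers passed; its part in their Spi1 level was not tested.

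Cebpa, the factor of early myeloid commitment, was highest in macrophage-like cells, at 34.3 CPM (31.3 to 37.5), with 32 of 52 cells above 0 and 18 with at least 5 counts. It was 10.9 CPM in patrolling monocyte-like, 5.46 in classical monocyte-like, 5.25 in conventional dendritic-like, 2.81 in NK cell-like and 2.54 in neutrophil-like cells. T cell-like cells had 1.04 and B cell-like cells 0.659 CPM, with 0 cells of either class at 5 counts. The macrophage-like cells stood 6.41 times (5.63 to 7.29) above the rest, while the intervals of classical monocyte-like and conventional dendritic-like cells overlapped. Neutrophil-like cells, the class with most Spi1, had little Cebpa: 2 of 273 cells had 5 counts and 1 of them held 43.8% of the class's counts. Of 152 cells with Cebpa above 0, 90 had at most 2 counts, so the low classes rest on very few counts.

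Cebpb, the inflammatory C/EBP gene, was high in both neutrophil-like cells, at 2273 CPM (2252 to 2295), and patrolling monocyte-like cells, at 2013 CPM (1984 to 2043). Classical monocyte-like cells had 773 and macrophage-like cells 661 CPM. NK cell-like cells followed at 299, B cell-like at 111, conventional dendritic-like at 107 and T cell-like cells at 74.3 CPM. The patrolling and classical monocyte-like cells were neighbours in this order whose quartiles did not overlap, at 1341 to 2705 against 427 to 1038 CPM. Conventional dendritic-like cells were set apart from the other myeloid classes: their Cebpb level was 9.47-fold lower than in all other cells and within counting error of that of B cell-like cells (ratio 1.05, 0.961 to 1.14). In neutrophil-like cells 272 of 273 had at least 5 counts. In NK cell-like cells 20 of 27 had at least 5 counts, beside 33 of 103 T cell-like cells, where 48.5% of the cells had the gene after thinning. T cells can express Cebpb themselves, so that share is not a clean measure of free RNA.

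Cebpd, a second inflammatory C/EBP gene, was at 236 CPM (229 to 243) in neutrophil-like, 70.6 in patrolling monocyte-like, 43.6 in classical monocyte-like and 42.3 in macrophage-like cells. Conventional dendritic-like cells had 16.0, T cell-like cells 6.69 and B cell-like cells 0.527 CPM. In T cell-like cells 1 cell held 62.9% of the counts, and without it the level was 2.63 CPM. A count was found in 0 of 27 NK cell-like cells. By the limit of 3 counts this allows a share of up to 11.1% of cells with a count and a level of up to 1.53 CPM. Neutrophil-like cells were 7.58 times (7.22 to 7.96) above the rest. Unlike Cebpb, it was present in part of each class: 128 of 273 neutrophil-like cells had a count and the median cell had 0. All 118 neutrophil-like cells with at least 5 counts of Cebpd also had at least 5 of Cebpb, and 154 had Cebpb alone. By cell name, the patrolling monocyte-like level was 4.74 CPM in A952 and 111 in A953, where 2 of 9 cells had the gene and 1 of them held 96.6% of the 117 counts.

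Cebpe, which serves late granulocyte maturation, was found in 17 of 273 neutrophil-like cells, at 14.6 CPM (12.9 to 16.4), and 11 of them had at least 5 counts. Of the 275 counts, 71 came from 2 cells named doublet, and the 19 neutrophil-like cells named A953 had 0. Classical monocyte-like cells had 4.11 CPM from 7 of 103 cells, all named A951. The classical monocyte-like cells named A952, A953 and A965 had 0 counts. In conventional dendritic-like cells the level was 1.84 CPM, of which a single cell held 97.0%. Patrolling monocyte-like, macrophage-like, B cell-like and T cell-like cells had between 1 and 3 counts each, and NK cell-like cells had 0. Neutrophil-like cells stood 9.38 times (7.57 to 11.7) above the rest, with the cells that carry the gene a small minority. Granule genes, which C/EBPε is known to drive, were higher in neutrophil-like cells for 6 of 8 members of a list of secondary and tertiary granule genes and lower for 1 (Cybb), beside 8.84% and 32.6% of all genes. Ngp was at 1417 CPM, but 1 cell held 96.0% of its counts, 17.9% of cells had any, and the level was 285 CPM when each cell weighed alike. Lcn2 was at 1388 CPM, with 31% of its counts in 1 cell and 938 CPM when each cell weighed alike.

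NK cell-like cells had the highest Irf8 level, 2849 CPM (2774 to 2924), with at least 5 counts in 27 of 27 cells. The lowest NK cell-like cell had 755 CPM, the median 2793 and the highest 6613. B cell-like cells had 406 CPM (394 to 418), with 103 of 160 at 5 counts, and conventional dendritic-like cells 281 CPM. Macrophage-like cells had 187, patrolling monocyte-like 133 and classical monocyte-like cells 107 CPM, whereas T cell-like cells had 10.9 and neutrophil-like cells 3.05 CPM. All 27 NK cell-like cells were above the upper quartile of every other class, and 15 were above the highest B cell-like cell (2401 CPM). The class was 20 times (19.4 to 20.6) above the rest and 7.02 times (6.75 to 7.30) above B cell-like cells. Of markers of other cells rich in Irf8, the summed plasmacytoid dendritic list was 12.2 CPM in NK cell-like cells (1 of 6 genes at 0), the conventional dendritic list 12.8 (4 of 11 at 0) and the B cell list 21.4 (3 of 9 at 0), and 0 of 27 cells had 3 markers of any of the 3 lists. The NK marker list summed to 17911 CPM there. In neutrophil-like cells, taken as the measure of free RNA, 2.93% of cells had Irf8 after thinning and 1 of 273 had 5 counts.

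Among conventional dendritic-like cells, 1 cell held 1211 counts of Irf8, 48.0% of the class, and without it the level was 155 CPM, below that of the macrophage-like cells (168 CPM without their own highest cell). The classical monocyte-like and T cell-like levels, neighbours in the order, differed 9.81 times (8.14 to 11.9). Spi1 and Irf8, whose products can bind together, were both at 5 counts or more in 40 of 52 macrophage-like and 58 of 103 classical monocyte-like cells, in 23 of 160 B cell-like cells and in 1 of 273 neutrophil-like cells. No NK cell-like cell had 5 counts of Spi1. Leaving out the cell with most counts kept the NK cell-like level at 2666 CPM.

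Irf4, which acts in B cell and plasma cell differentiation and in type 2 dendritic cells, was highest in B cell-like cells at 91.5 CPM (86.0 to 97.2). There 51 of 160 cells were above 0 and 43 had at least 5 counts, so most B cell-like cells had none detected. Conventional dendritic-like cells had 15.9 CPM in 11 of 31 cells. T cell-like cells had 11 CPM, but 1 cell held 57.3% of it. Macrophage-like cells had 8.82, classical monocyte-like 3.70, patrolling monocyte-like 2.05 (a single cell) and neutrophil-like cells 0.212 CPM, and 0 of 27 NK cell-like cells had a count. The B cell-like level was 16.3 times (14.6 to 18.2) that of the rest. The summed plasma cell list was 94.0 CPM there, of which Xbp1 made up 48.0, against 90.5 in neutrophil-like cells, of which Xbp1 made up 89.6; Xbp1 is not specific to plasma cells. In B cell-like cells 31 had at least 5 counts of both Irf4 and Irf8, 12 of Irf4 alone, 72 of Irf8 alone and 45 of neither.

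**Figure D2:**
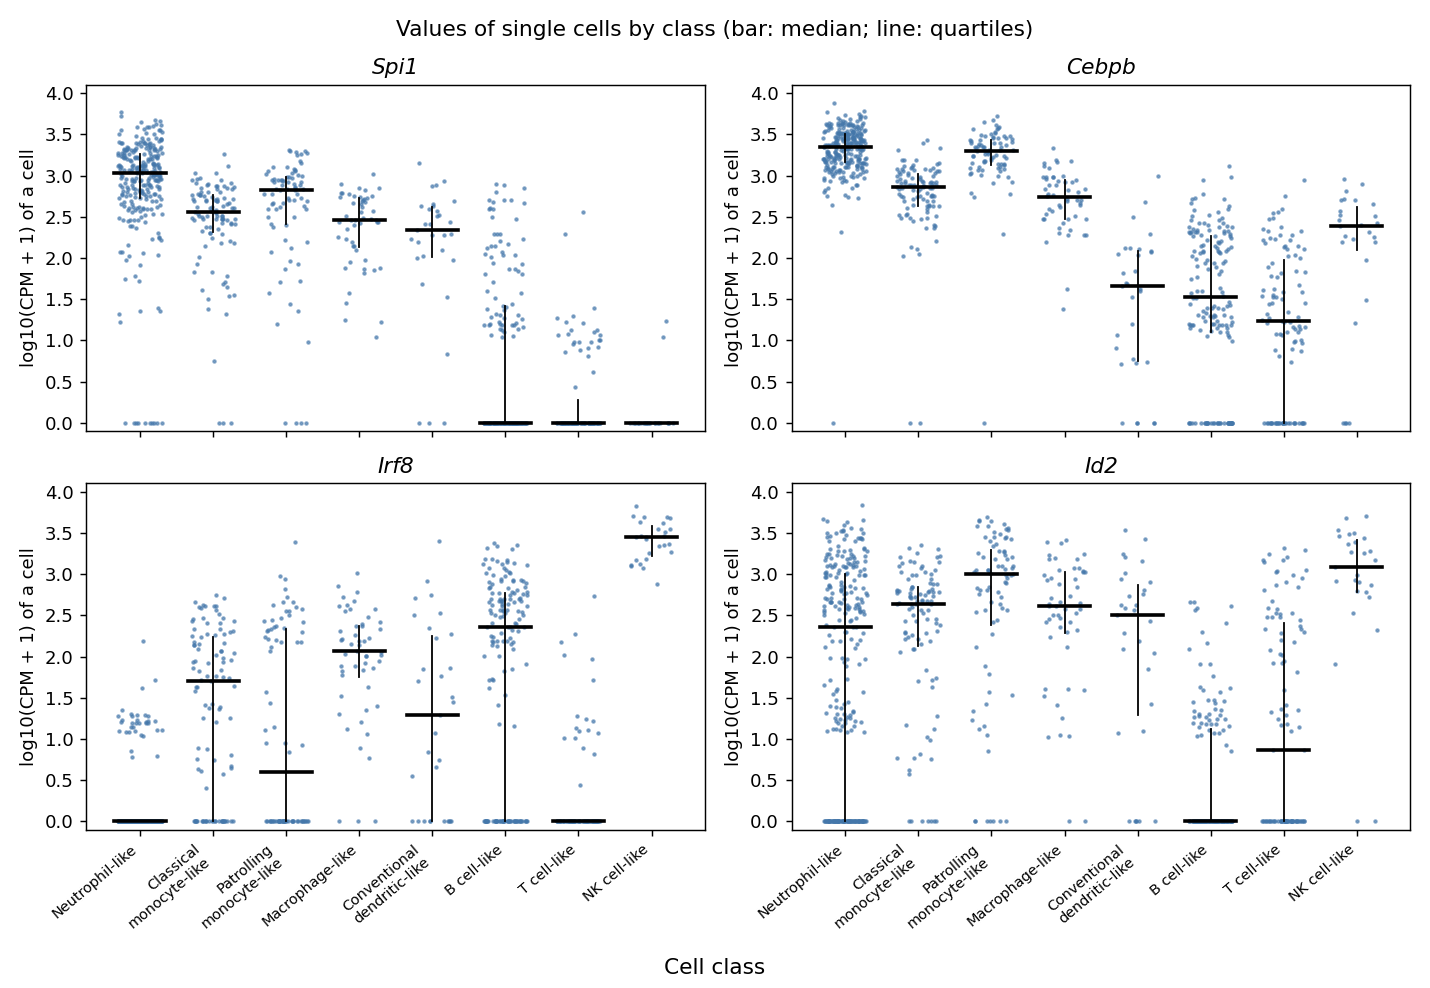
Values of single cells for Spi1, Cebpb, Irf8 and Id2 (vertical axis, log10(CPM + 1); dots, cells; bar, median; line, lower to upper quartile) by class. NK cell-like cells lie at 755 to 6613 CPM of Irf8, while Cebpb separates patrolling (quartiles 1341 to 2705 CPM) from classical monocyte-like cells (427 to 1038 CPM).

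Batf3, a leucine zipper partner of the IRF proteins, was highest in conventional dendritic-like cells at 96.2 CPM (89.9 to 103), in 13 of 31 cells. Macrophage-like cells had 33.4 CPM in 22 of 52 cells and classical monocyte-like cells 19.6 CPM in 26 of 103. Neutrophil-like cells had 3.23 CPM, of which 1 cell held 91.8%, and patrolling monocyte-like cells 3.07 CPM. B cell-like and T cell-like cells had 3 counts each and NK cell-like cells 1. The dendritic level was 7.94 times (7.26 to 8.69) above the rest and 2.88 times (2.57 to 3.23) above the macrophage-like cells. At 5 counts or more, Batf3 and Irf8 were found together in 8 of 31 conventional dendritic-like, 12 of 52 macrophage-like and 12 of 103 classical monocyte-like cells. Irf8 without Batf3 was seen in 30 macrophage-like and 47 classical monocyte-like cells.

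The 31 conventional dendritic-like cells were clustered again without the 10 genes, with settings chosen after the data were seen. A group of 10 had 5 of the 6 type 1 dendritic markers in the matrix (Clec9a, Itgae, Wdfy4, Tlr3 and Naaa). It was led also by genes of dividing cells such as Pclaf and Birc5. The other 21 were mixed. Among them, 9 cells had 4 of 7 type 2 dendritic markers and were led also by macrophage markers such as C1qa and C1qb. A further 5 had 8 of 8 migratory dendritic markers, and 7 stayed unnamed. The comparison is therefore not of type 1 with type 2 cells. In these 10 type 1-like cells Irf8 was 577 CPM against 85.9 in the other 21, and 275 against 38.0 without the highest cell of each side. Batf3 was 163 against 51.7 CPM, and 118 against 43.4 without those cells. Spi1 was 189 against 349 CPM. Irf4 was 6.73 against 21.9 CPM, and was above 0 in 4 of the 10 and 7 of the 21 cells. For Cebpb the summed level was 57.4 against 139 CPM, but the median cell had 56.6 against 41.1 CPM and at least 5 counts were found in 8 of 10 against 11 of 21 cells, so the summed and the single-cell values differ in direction. The counts of Irf8 in single type 1-like cells ran 1211, 329, 229, 138, 85, 30, 28, 7, 1 and 0, so the group is uneven. Batf3 was at 0 in 5 of the 10.

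Gfi1, the zinc finger repressor, was highest in T cell-like cells at 20.9 CPM (18.3 to 23.9), in 17 of 103 cells, 10 of them with at least 5 counts. B cell-like cells had 9.35 CPM in 13 of 160 cells. Classical monocyte-like cells had 1.18 CPM, 76.3% of it in 1 cell, and neutrophil-like cells 0.504 CPM with 6 of 273 cells above 0. Conventional dendritic-like, macrophage-like and patrolling monocyte-like cells had between 1 and 3 counts each, and NK cell-like cells had 0 of 27. T cell-like cells were 12.3 times (10.00 to 15.3) above the rest. The excess in B cell-like cells, 3.14 times (2.49 to 3.95), was not found under every name: B cell-like cells named A953 had 1.13 CPM and those named A951 16.8. Within A953 the log2 ratio was -2.25, against 1.38 over all names, and it was 0.83 when each cell weighed alike and 0.58 with 10 CPM added.

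Id2, the inhibitor of E proteins, peaked in 2 unlike classes, the NK cell-like cells with 1569 CPM (1514 to 1625) and the patrolling monocyte-like cells with 1341 CPM (1317 to 1366). Conventional dendritic-like cells had 706, neutrophil-like 654, macrophage-like 637 and classical monocyte-like cells 555 CPM. In conventional dendritic-like cells 1 cell held 26.9% of the counts. Without the highest cell of each class these levels were 546, 642, 588 and 534 CPM. T cell-like cells had 319 and B cell-like cells 29.5 CPM (26.4 to 32.8). The neutrophil-like and macrophage-like levels were within counting error of each other (ratio 1.03, 1.000 to 1.06). B cell-like cells were 22.7-fold (20.4 to 25.4) below all other cells, with 12 of 160 at 5 counts and 16.9% with the gene after thinning. The next class up, the T cell-like cells, was 10.8 times (9.66 to 12.1) higher. Neutrophil-like cells were mixed: 193 of 273 had a count, with quartiles of 0 and 1011 CPM. Among the E proteins that ID2 binds, Tcf3, Tcf4 and Tcf12 were all called higher in B cell-like cells, beside 16.9% of all genes. There Tcf4 was at 161 CPM and Tcf12 at 123, against 8.69 and 2.82 in neutrophil-like cells. Id3, a relative of Id2, was at 1.02 CPM in NK cell-like and 201 in macrophage-like cells.

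Between the monocyte classes, 2 of the 10 genes were higher in patrolling than in classical monocyte-like cells (14.4% of all genes) and 2 were lower (11.8%). Cebpb was 2.60 times (2.55 to 2.66) and Id2 2.42 times (2.36 to 2.48) higher in patrolling monocyte-like cells. Batf3 was 6.40-fold (4.34 to 9.81) lower in patrolling monocyte-like cells, at 3.07 against 19.6 CPM. For Cebpe, the second lower gene, patrolling monocyte-like cells held 2.5 counts in all. The 100 counts in classical monocyte-like cells all came from cells named A951. Spi1 (1.69 times, 1.64 to 1.75), Cebpd (1.62 times, 1.47 to 1.79) and Irf8 (1.24 times, 1.16 to 1.33) were above 1 but short of the rule. The same held for Cebpa, at 10.9 against 5.46 CPM (interval of the ratio 1.52 to 2.62). Its ratio with 1 CPM added was 1.85. Irf4 and Gfi1 were below 1 and also short of the rule. Irf8 was above 0 in 50.0% of patrolling and 72.8% of classical monocyte-like cells, although the summed level was higher in the former, and the classical monocyte-like cells had more total counts (medians 227114 and 105902). After thinning the shares were 46.2% and 55.3%. The Cebpb difference was seen under each of the 4 cell names, with log2 ratios of 1.23 to 1.60 over all alternatives. For Batf3 the log2 ratio was -0.99 in A965 and 0.96 in A953, where 8 classical monocyte-like cells had no count; for Id2 it was 0.86 in A951 and for Cebpe 0.31 in A952 and -0.46 with 10 CPM added.

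**Figure D3:**
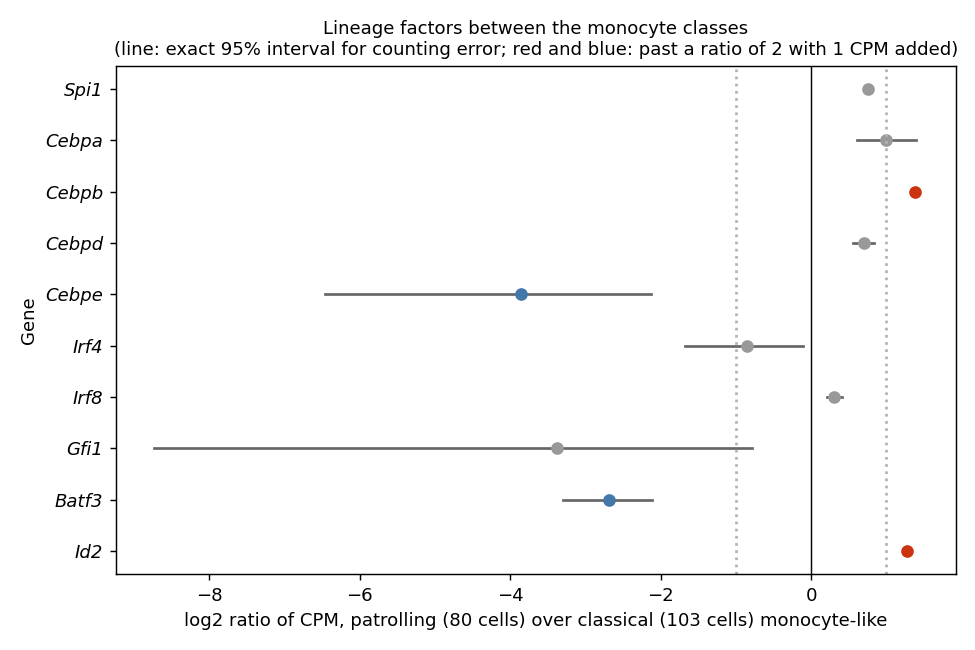
Ratio of CPM in 80 patrolling over 103 classical monocyte-like cells for each gene (horizontal axis, log2; line, exact 95% interval for counting error; dotted lines, a ratio of 2). Cebpb (2.60 times) and Id2 (2.42 times) lie to the right in red, Batf3 and Cebpe to the left in blue, and the intervals of Cebpe and Gfi1 are wide because patrolling monocyte-like cells held 2.5 counts and 1 count of them.

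The neutrophil-like class joined 2 clusters, 166 cells with Icam1 at 99.1 CPM, and 107 cells led by Il23a, Gpr84 and Icam1 with Icam1 at 1051 CPM. Retnlg, Ngp and Camp led the former, but in the whole class 1 cell held 96.0% of the Ngp counts and 1 cell 99.5% of the Camp counts, with 17.9% and 11.4% of cells above 0. Between them 0 of the 10 genes were higher in the Icam1-high cells, beside 16.8% of all genes, and 1 was lower, beside 8.10%. That 1 was Batf3, whose 59.5 counts in the other 166 cells included 56 from a single cell. Cebpb was 2334 CPM in Icam1-high and 2238 CPM in the other cells (ratio 1.04, 1.02 to 1.06) and Cebpd 221 and 245 CPM (0.903, 0.848 to 0.961). Spi1 was 1079 against 1418 CPM (0.761, 0.740 to 0.782) and Id2 548 against 716 CPM (0.765, 0.736 to 0.795). Cebpe was 16.5 and 13.5 CPM (1.23, 0.958 to 1.57), within counting error.

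Levels by cell name were compared where a class had at least 5 cells of that name. Spi1 and Cebpd were highest in neutrophil-like cells under each of the 4 names. Cebpb was highest there under A951, A952 and A953, and in patrolling monocyte-like cells under A965 (2317 against 1923 CPM). Irf8 in NK cell-like cells was 2876 CPM in A953 and 2878 in A965, the names with at least 5 such cells. Irf8 in conventional dendritic-like cells ranged from 151 CPM in A952 to 917 in A951, where 1 of 7 cells held 81.8% of the counts. Id2 ran from 205 CPM in A953 to 790.4 in A965 in neutrophil-like cells, and from 105 in A965 to 542 in A951 in T cell-like cells. Irf4 in B cell-like cells ranged from 72.6 to 115 CPM over 3 names. In Cebpb the patrolling monocyte-like excess over all other cells fell short of the rule within A951 (log2 ratio 0.85) and A952 (0.84) and when each cell weighed alike (0.98); for Id2 it did so within A951 (0.89). For Irf8 the excess in B cell-like cells fell short within A965, at 0.59.

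**Figure D4:**
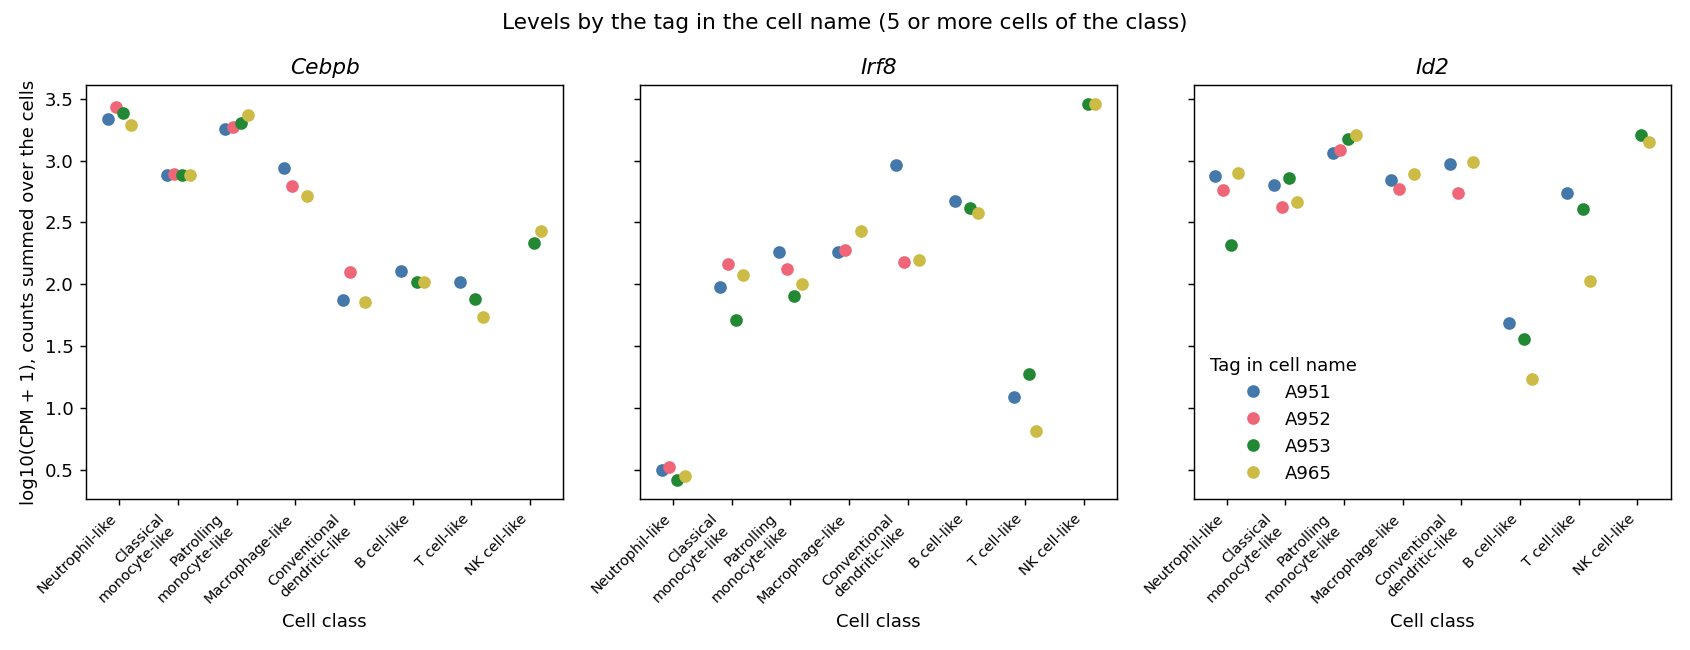
Levels of Cebpb, Irf8 and Id2 (vertical axis, log10(CPM + 1) of counts summed over the cells) by class and by the hashtag in the cell name (colour), for classes with at least 5 cells of that name. Irf8 in NK cell-like cells is alike in A953 and A965 (2876 and 2878 CPM), while Id2 in T cell-like cells spans 105 to 542 CPM.

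Genes with the most similar pattern were ranked by Pearson's r of log2(CPM + 1) over the 8 classes among 5305 genes with at least 50 CPM in a class. The classes share 1 library and differ in depth, so r is a description. Spi1 was closest to I830077J02Rik (r = 0.991) and Dynlt1f (0.979). Cebpd was closest to Cd300lb (0.981), Trem1 (0.978) and Pilra (0.976), which encode myeloid surface receptors, and Cebpe to Gucy2c (0.972), Slfn4 (0.962) and Snai1 (0.951). Cebpa was closest to Snx3 (0.975), Pmp22 (0.946) and Bsg (0.943), and Cebpb to Atg2a (0.989), Oaz2 (0.976) and Sec14l1 (0.966). Irf4 was closest to E330020D12Rik (0.987), Gga2 (0.976) and Llph (0.972), and Irf8 to Oxa1l (0.971), Magohb (0.961) and Cwc27 (0.946). Gfi1 was closest to Slamf1 (0.979), Ccr9 (0.972) and Fam169b (0.967), Batf3 to Gatm (0.964), Cysltr1 (0.956) and Nsmce2 (0.955), and Id2 to Wdr1 (0.955), Siva1 (0.942) and Irak4 (0.932). Spi1 had 102 candidate genes with r over 0.9 and Cebpd 116, against 6 for Irf8 and 8 for Id2. Within the 10 genes, r was 0.87 for Spi1 with Cebpd and 0.74 for Cebpb with Cebpd, and -0.83 for Irf4 with Id2.

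Relatives and partners of the 10 genes were taken from 8 lists, counted by the same rule. Of 9 ETS genes besides Spi1, B cell-like cells had 3 higher (Spib, Ets1 and Elf1) and 4 lower, beside 16.9% and 17.5% of all genes. NK cell-like cells had 3 higher (Ets1, Fli1 and Elf1) and 4 lower, beside 16.1% and 28.4%. Neutrophil-like cells had 1 higher (Ets2) and 5 lower, beside 8.84% and 32.6%. In each of classical monocyte-like (19.3% of all genes), conventional dendritic-like (23.2%) and T cell-like cells (18.2%), 5 were also lower. Ets1 was at 713 CPM in B cell-like and 18.0 in neutrophil-like cells, the reverse of Spi1. Of the 6 IRF genes counted besides Irf4 and Irf8, patrolling monocyte-like cells had 2 higher, beside 8.07% of all genes. These were Irf1 at 276 CPM and Irf2 at 192. Of 6 C/EBP partners and relatives, neutrophil-like cells had 2 higher and 1 lower (Trib2), beside 8.84% and 32.6% of all genes. The 2 higher were Ddit3 at 286 CPM and Trib1, which encodes an adaptor known to direct C/EBPα to degradation, at 374. Of 6 BATF and JUN genes, neutrophil-like cells had 2 higher (8.84% of all genes), Jdp2 and Junb, with Junb at 2177 CPM. Of 5 genes of the GFI1 repressor complex, Gfi1b was the 1 gene higher in neutrophil-like (8.84% of all genes) and in patrolling monocyte-like cells (8.07%).

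Of 14 other myeloid lineage factors, 6 were higher in patrolling monocyte-like cells, among them Nr4a1, known for this monocyte type, at 1414 CPM and Klf4 at 823, and 4 were lower (Maf, Myb, Myc and Egr2), beside 8.07% and 18.8% of all genes. Of 14 lymphoid lineage factors, 13 were lower in neutrophil-like cells (32.6% of all genes), 12 in classical monocyte-like (19.3%) and 12 in macrophage-like cells (16.8%). B cell-like cells had 6 higher (16.9%) and 7 lower (17.5%), T cell-like cells 9 higher (14.7%) and 3 lower (18.2%), and NK cell-like cells 8 higher (16.1%) and 5 lower (28.4%). Pax5 was at 328 CPM and Ebf1 at 536 in B cell-like cells. Among 5 receptors for myeloid growth factors, Csf3r, the granulocyte receptor, was at 1495 CPM in neutrophil-like cells. All 5 receptors were lower in T cell-like (18.2% of all genes) and in NK cell-like cells (28.4%). Of 4 primary granule genes in the matrix, 2 had enough counts for the rule. Neutrophil-like cells had 1 of these higher (Mpo) and 1 lower (Prtn3), beside 8.84% and 32.6% of all genes. The 4 genes summed to 10.8 CPM there, so Mpo was low as well. Prtn3 was higher in classical monocyte-like cells (3.87% of all genes), at 93.2 CPM against 7.93 in neutrophil-like cells.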

How the data were processed

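One transcriptome library and 1 hashtag library of sorted cells from TAC-operated hearts were used. The deposited transcriptome matrix holds estimated counts per gene and cell made by the authors, of which 69.8% of values above 0 are whole numbers; no source used here says whether they are molecules or reads. The deposited hashtag table holds counts per cell and tag. The submitters' processing notes name cutadapt 4.1, STAR, STARsolo 2.7.10b, R 4.3.1 and the genome build GRCm39, without their order. Cells needed 500 counts, 200 genes and at most 25% mitochondrial counts. Counts were scaled to 10000 per cell, log-transformed and clustered with scanpy 1.11.5 and leidenalg 0.10.2 (2000 variable genes, 30 components, 15 neighbours, resolution 1.0, seed 0); the 10 genes and their relatives, 77 genes in all, were left out of the variable genes. A cluster was named when at least 3 markers of a list reached 50 CPM and 2 times the other cells. No doublet caller was run; 46 kept cells that the authors named doublet stayed in, and an alternative left them out. The sort and the pooling can set the shares of the classes.

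Each class was summed as a single profile (numpy 2.4.6, scipy 1.17.1, pandas 2.3.3). Ratios carry exact 95% intervals from Poisson and binomial counts; those intervals and the limits from 3 counts cover counting error only, since amplified reads are not independent molecules. Cells are not replicates, so no test was made. The calculations were tested on simulated data. Named genes are the 10 members, the 3 genes with the most similar pattern to each, and at most 3 of each related list, those highest in the class where the list's sum is highest; some genes that this rule names are not reported here, and any other gene given with a count was named after its values were seen. The members and lists were chosen with earlier results of these data known. A floor of 5 counts per cell, the clustering of dendritic cells and the comparison of neutrophil clusters were chosen after seeing the data. The matrix gives symbols only; promoter windows are of another build than the counts and were matched by symbol.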

Additional observations from a re-analysis of the deposited data

How the results depend on the processing

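Of 194 counts of members called higher or lower under 20 settings (19 planned and 1, which set member values under 5 counts to 0, chosen after seeing the data), 174 stayed within 1.5 times the value given and 20 moved. Of 346 ratios of single genes, 182 were counted as unchanged, 161 as moved and 3 as turned in sign. By the looser rule of staying past a ratio of 2 in the same direction, 332 held and 14 did not. Some settings could not test these results. All 10 members passed the filter on counts per gene, so loosening or dropping it left their values as they were. A higher floor of genes per cell and another clustering seed gave classes of the same sizes. A calling ratio of 1.5 changes no log2 ratio. Both tallies therefore include repeats of the main result. The log2 ratio of Irf8 in NK cell-like cells stayed between 4.23 and 4.50, and that of Spi1 in neutrophil-like cells between 1.94 and 2.46. With each cell weighing alike, 1 member was higher in classical monocyte-like cells (5.88% of all genes under the same setting, as in the brackets that follow), 1 in patrolling ones (8.73%) and 2 in macrophage-like cells (9.76%). With a ratio of 1.5, 2 were higher in macrophage-like cells (15%) and 2 in conventional dendritic-like cells (12.2%), and 5 were higher (24%) and 4 lower (19.2%) in patrolling than in classical monocyte-like cells. With 10 CPM added, 1 was lower in that comparison (2.99%). Within cells named A951, 0 were higher in patrolling monocyte-like cells (13.8%), 2 in macrophage-like (12.5%), 2 in conventional dendritic-like (11.9%) and 2 in T cell-like cells (18.9%). Within A952, with 9 members counted, 1 was higher in patrolling monocyte-like cells (17.6%), 2 in conventional dendritic-like cells (11.7%) and 4 in patrolling over classical monocyte-like cells (25.2%). Within A953, with 8 counted, 4 were higher in patrolling monocyte-like cells (16.2%), and 0 were lower in patrolling than in classical ones (26.8%). Within A965, with 9 counted, 4 were higher in patrolling monocyte-like cells (12%), 1 in B cell-like cells (18.9%), and 1 was lower in patrolling than in classical monocyte-like cells (22.6%). Signs turned for 3 ratios: Gfi1 in B cell-like cells in A953 (log2 ratio -2.25), Cebpe in patrolling over classical monocyte-like cells in A952 (0.31) and Batf3 in the same comparison in A953 (0.96). These causes were not tested; the settings by name use fewer cells. Classes with under 5 cells of a name were not run for it. Few cells limit the levels of Cebpe, above 0 in 37 of 857 cells, Gfi1 (50), Batf3 (81) and Irf4 (99). With 1 library no difference between mice could be measured. No paired analysis was possible because there is 1 transcriptome library and no result comes from a test.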

Other observations

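The cluster of 28 cells without a name had a median mitochondrial share of 7.96%. In it Cebpa was 66.1 CPM, above the level in every named class, with 9 of 28 cells above 0 and 4 with at least 5 counts. Spi1 was 309 CPM, Cebpb 620.3, Irf8 191 and Id2 271 CPM there, and Cebpe and Gfi1 had 2 counts each. Its leading genes were Plcb1, Fnip2 and Vav3.

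T cell-like cells were also taken by Cd4 and Cd8a. Id2 was 538 CPM in 31 cells with Cd4 alone, where 1 cell held 44.7% of the counts, and 131 CPM in 28 cells with Cd8a alone. Gfi1 was 7.48 and 16.9 CPM in these groups and 36.0 CPM in the 44 cells with neither or both. It was above 0 in 4 of 31, 6 of 28 and 7 of 44 cells. In these groups 1 cell held 68.0%, 36.4% and 28.8% of the Gfi1 counts, so the levels rest on few cells.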
